A study of Mus musculus with 14 samples.

Results

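The 10 genes described here mark T cells and the cytotoxic lymphocytes that lie within the gut epithelium: Cd3e, Cd4, Cd8a, Itgae, Gzma, Gzmb, Prf1, Nkg7, Klrd1 and Ccl5. They were chosen by name, with earlier results of these data known. All 10 were found among the 46882 entries of the authors' deposited table of TPM. TPM is a transcript level scaled for gene length and to 1 total per library. RNA came from whole ileum, the last stretch of the small intestine, of C57BL/6N mice, an inbred strain. Of 14 libraries, 4 came from untreated mice at postnatal day 14 (P14) and 4 from untreated mice at day 24 (P24). The other groups were 3 mice given PBS and 3 given recombinant mouse Il22 (rmIl22, at 0.1 µg per g), in 100 µL injected into the abdomen on days 14 and 15, with tissue taken on day 16. The age field of the labels reads day 14 for PBS and day 24 for rmIl22, against the day 16 of the protocol, so groups follow the titles. All 4 groups are labelled wild type.

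T cells recognise antigen through a receptor held at the surface by the CD3 chains, with CD4 or CD8 as coreceptor. Intraepithelial lymphocytes sit between the enterocytes, many of them CD8+ T cells held there by the integrin CD103 (the product of Itgae) binding E-cadherin, and they fill the gut as a young mouse matures. Cytotoxic cells store granzymes, which are serine proteases, in granules together with perforin, which opens the membrane of the target cell to them. In whole tissue, a change in the number of such cells and a change in RNA per cell cannot be told apart. The labels call the replicates biological, and p-values set differences between groups against the spread between these libraries.

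The result turns on 2 granzyme genes, Gzma and Gzmb, which lie on different chromosomes and moved together. Their start regions are shown for that reason, from RefSeq on GRCm38.p6 (300 bases each, 250 of them before the annotated start), and RefSeq promoters matched 6 of the 10 genes. Capitals mark matches, on either strand, to TGTGGT (the core bound by Runx factors), TGANTCA (AP-1), TTCNNNGAA (STAT) or GGTGTGA (T-box). None of the marked matches overlap each other.
Gzma, chr13:113100932-113101231, minus strand: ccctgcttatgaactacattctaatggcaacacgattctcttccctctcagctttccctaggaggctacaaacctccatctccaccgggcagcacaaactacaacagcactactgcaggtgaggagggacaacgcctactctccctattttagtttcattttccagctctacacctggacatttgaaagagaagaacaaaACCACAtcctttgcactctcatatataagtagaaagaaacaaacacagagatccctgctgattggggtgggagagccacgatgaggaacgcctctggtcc
Gzmb, chr14:56262285-56262584, minus strand: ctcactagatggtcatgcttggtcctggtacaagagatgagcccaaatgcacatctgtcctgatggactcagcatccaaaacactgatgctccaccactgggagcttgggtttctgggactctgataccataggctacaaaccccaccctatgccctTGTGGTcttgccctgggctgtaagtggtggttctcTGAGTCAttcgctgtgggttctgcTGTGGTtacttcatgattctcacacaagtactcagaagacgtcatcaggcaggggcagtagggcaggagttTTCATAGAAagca
The Gzma window held 1 Runx match, at position 201 counted from its 5′ end. The Gzmb window held Runx matches at positions 158 and 217, an AP-1 match at 193 and a STAT match at 288, and neither window held the T-box letters. A match is a description of letters, not a bound site. Of the 32851 promoters in the table, 16.8% held the Runx letters, 7.8% AP-1, 8.3% STAT and 4.0% T-box. The RefSeq start of Gzmb lies 74 bases upstream of the gene's bound in GENCODE M21, while that of Gzma coincides with it.

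On the GRCm38 (mm10) assembly, GENCODE M21 places Gzma (ENSMUSG00000023132.8) on chromosome 13 from 113093825 to 113100981 and Gzmb (ENSMUSG00000015437.5) on chromosome 14 from 56258838 to 56262260, both on the minus strand. Prf1 lies on chromosome 10, Cd3e on 9, Nkg7 on 7, Cd4, Cd8a and Klrd1 on 6, and Itgae and Ccl5 on 11. An annotated antisense gene overlaps Cd3e, and Haspin lies inside Itgae on the opposite strand. Reads of such pairs cannot be told apart here, since no source used here states whether the counting used strand.

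Whole reads could be worked back from the TPM, and the libraries held 35.6 to 46.5 M reads assigned to genes. Enterocyte markers were abundant, with a summed level over 10 genes of 12085 to 26970 TPM per library. T cell transcripts were rare beside them: Cd3e had 1 to 32 reads per library, and the highest level of any of the 10 genes in any library was 15.6 TPM. Libraries of 1 group differed in lymphoid follicle RNA. The summed level of 14 B cell and follicle genes was 234 and 297 TPM in P24 libraries 1 and 8, against 15.8 and 11.8 TPM in P24 libraries 2 and 6. The same split separated P14 libraries 1 and 5 (68.2 and 76.8 TPM) from 2 and 4 (9.74 and 16.4 TPM), and PBS libraries 1 and 3 (128 and 108 TPM) from 2 (35.8 TPM). At P24, the 2 libraries rich in follicle genes were the 2 highest for all 14 follicle genes and for 9 of the 10 genes described here. The age results of the 10 genes are therefore also given without P24 libraries 1 and 8. Those fits kept P14 libraries 1 and 5, so P24 libraries poor in follicle genes stood against P14 libraries of both kinds. A turn of sign in them is therefore not a comparison at equal follicle RNA.

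Gzma and Gzmb were higher at P24 than at P14 in every library, 12.1-fold and 12.5-fold on mean TPM, while Cd4, Itgae and Nkg7 did not pass the main test. Cd3e, Cd8a, Prf1, Klrd1 and Ccl5 were too low for that test, and of these only Ccl5 passed when all genes were fitted without a filter. Between rmIl22 and PBS none of the 10 genes passed. The plot of levels by library shows all values.

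**Figure D1:**
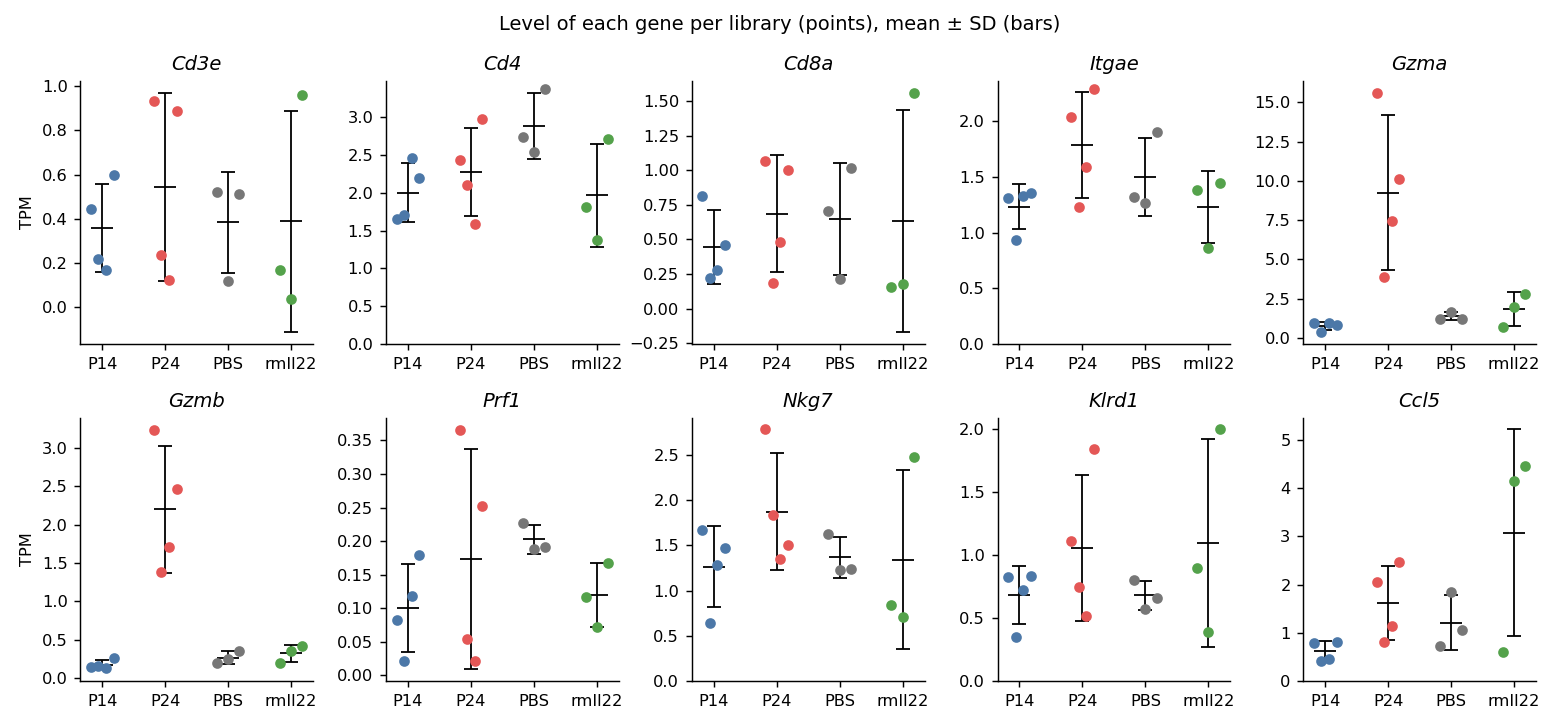
TPM (vertical axis, linear, a separate scale per gene) of the 10 genes in each of the 14 libraries, grouped as P14, P24, PBS and rmIl22; points are libraries, bars the mean ± SD, which can reach below 0 where the spread is wide. In the Gzma and Gzmb panels the 4 P24 points lie above all other points, whereas the P24 points of Cd3e and Cd8a fall into a high and a low pair.

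The surface receptor genes come first. Cd3e, the epsilon chain that carries the signal of the T cell receptor, was at 0.442, 0.218, 0.17 and 0.596 TPM in P14 libraries 1, 2, 4 and 5 and at 0.931, 0.234, 0.123 and 0.889 TPM in P24 libraries 1, 2, 6 and 8. The groups overlapped, and the high P24 values were those of libraries 1 and 8. It did not reach the minimum level for the main test (1 TPM or more in 4 or more libraries). Fitted without that filter with limma on log2(TPM + 1), where fold changes of low genes are understated, Cd3e had a log2 fold change of 0.16 with an SE of 0.20 (adjusted p = 0.594).

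Cd8a, the CD8 alpha chain carried by most intraepithelial T cells, was highest in P24 libraries 1 and 8 and lowest in P24 library 2. It was at 0.814, 0.221, 0.281 and 0.46 TPM at P14 and at 1.07, 0.185, 0.484 and 1 TPM at P24. The log2 fold change without the filter was 0.20 (SE 0.20, adjusted p = 0.494). Cd4, the coreceptor of helper T cells that some macrophages and dendritic cells also carry, had the highest mean of the 10 genes at P14. It was at 1.65, 1.7, 2.46 and 2.19 TPM at P14 and at 2.43, 2.1, 1.59 and 2.97 TPM at P24. Its log2 fold change in the main test was 0.12 (SE 0.16, 95% interval -0.22 to 0.46, adjusted p = 0.536), and the groups overlapped. Quantile normalisation called it (0.34, adjusted p = 0.0377). Without P24 libraries 1 and 8, the log2 fold changes turned to -0.19 for Cd3e, -0.11 for Cd8a and -0.07 for Cd4, with adjusted p from 0.364 to 0.756.

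Itgae, the alpha chain of the integrin CD103, was at 1.31, 0.937, 1.33 and 1.36 TPM at P14 and at 2.04, 1.23, 1.59 and 2.29 TPM at P24. Of the P24 libraries, 1, 6 and 8 lay above every P14 library and library 2 lay among them. At a log2 fold change of 0.31 (SE 0.15), it missed the threshold (adjusted p = 0.0976). It passed when each library was scaled to the same median (0.48, adjusted p = 0.0163) and when P24 library 2 was left out (0.41, adjusted p = 0.0452). It was 0.11 without P24 libraries 1 and 8.

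The granule genes differed most. Gzma, granzyme A, a tryptase-like protease, was at 0.915, 0.357, 0.943 and 0.836 TPM in P14 libraries 1, 2, 4 and 5 (7 to 19 reads) and at 15.6, 3.89, 7.42 and 10.1 TPM in P24 libraries 1, 2, 6 and 8 (61 to 327 reads). The lowest P24 library was above the highest P14 library, and libraries 1 and 8 were again the highest at P24. The mean went from 0.763 ± 0.274 (SD, n = 4) to 9.25 ± 4.92 TPM (SD, n = 4), 12.1 times as high. The log2 fold change in limma was 2.42 (SE 0.30, 95% interval 1.76 to 3.07, adjusted p = 3.75e-05).

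Gzmb, granzyme B, which cleaves after aspartate and can start apoptosis, was at 0.149, 0.158, 0.137 and 0.259 TPM at P14 (4 to 9 reads) and at 3.24, 1.38, 1.71 and 2.47 TPM at P24 (35 to 110 reads). No P24 library came near the P14 range. The mean rose 12.5-fold, from 0.176 ± 0.056 to 2.2 ± 0.83 TPM (SD, n = 4 each). In limma the log2 fold change was 1.41 (SE 0.18, adjusted p = 4.61e-05), understated by the added 1 TPM. On the recovered reads, limma voom gave 3.57 for Gzma and 3.57 for Gzmb, and the authors' deposited table gives 3.91 and 3.94. Both genes passed the filter on low values through their P24 libraries only, since all their P14 values were below 1 TPM.

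Without P24 libraries 1 and 8, Gzma still rose (log2 fold change 1.88, adjusted p = 1.35e-04), as did Gzmb (1.11, adjusted p = 6.33e-04). Both calls also stood with each library left out in turn. The 2 genes had correlated levels over the 14 libraries (Pearson r = 0.97 on the log2 scale), a description that the P24 group dominates.

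Prf1, perforin, did not follow the granzymes. It was at 0.0824, 0.0218, 0.119 and 0.179 TPM at P14 and at 0.366, 0.0545, 0.0214 and 0.253 TPM at P24, with 1 to 18 reads per library. P24 libraries 2 and 6 lay inside or just below the P14 range. The log2 fold change without the filter was 0.08 (adjusted p = 0.544) and turned to -0.08 without P24 libraries 1 and 8, and voom on the reads gave 0.48 with a 95% interval from -1.32 to 2.27, so a change of the size seen in the granzymes lies outside the interval while a smaller one was not detectable at this depth.

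Nkg7, a membrane protein of cytotoxic granules, was at 1.67, 0.636, 1.28 and 1.47 TPM at P14 and at 2.79, 1.84, 1.35 and 1.5 TPM at P24. Only P24 libraries 1 and 2 lay above the P14 range. Nkg7 did not pass the test, at a log2 fold change of 0.34 (SE 0.19, adjusted p = 0.148). Quantile normalisation called it (0.53, adjusted p = 0.0493), and without P24 libraries 1 and 8 its log2 fold change was 0.21 (adjusted p = 0.438). This was the one gene of the 10 for which P24 libraries 1 and 8 were not the highest pair.

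Klrd1 encodes CD94, which pairs with NKG2 receptors on NK cells and some CD8+ T cells. It was at 0.825, 0.349, 0.722 and 0.828 TPM at P14 and at 1.11, 0.743, 0.515 and 1.84 TPM at P24. The groups overlapped. Without the filter Klrd1 had a log2 fold change of 0.26 (SE 0.20, adjusted p = 0.399), which turned to -0.04 without P24 libraries 1 and 8.

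Ccl5, a chemokine stored and released by cytotoxic T cells, was at 0.793, 0.419, 0.456 and 0.807 TPM at P14 and at 2.05, 0.816, 1.15 and 2.46 TPM at P24. Its groups did not overlap, but the lowest P24 value exceeded the highest P14 value by little. Below the main filter, it passed the test without the filter (log2 fold change 0.65, SE 0.21, adjusted p = 0.0484) and with voom on the reads (1.36, adjusted p = 0.0292). The call without the filter was lost when P24 libraries 1 and 8 were left out (0.30, adjusted p = 0.217) and when any single library other than P24 library 2 was (0.50 to 0.73, adjusted p from 0.0564 to 0.117). With the filter, which then asked for 3 libraries, Ccl5 was tested in 5 of those 8 fits and called in 3, without P14 library 1 (adjusted p = 0.0239), P14 library 5 (0.0246) or P24 library 2 (0.00506).

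Of the 10 genes, 5 reached the main filter and 2 of these, Gzma and Gzmb, rose. Of all 14651 genes tested, 14.6% rose with age and 43.7% fell. As both granzyme genes reached the filter through the group in which they are high, the filter helps to set this count, and it is not read against those shares. Without the filter, 3 of 10 rose, against 7.74% of 29860 genes. In 3 of 10 every P24 value lay above every P14 value, against 7.97% of genes with any read. Since the 10 genes were chosen with earlier results of these data known, both counts are descriptions only. Without the filter, the median log2 fold change of the 10 genes was 0.28 and that of all genes was -0.05. In the main test the median of all genes was -0.25. Scaling each library to the same median moved it to 0.01 and the share of calls that were higher from 25.1% to 50.0%. On that scale Gzma rose by 2.61 and Gzmb by 1.53, and 3 of the 5 tested genes were called, the third being Itgae. In the authors' deposited table, 40.3% of all genes have an adjusted p under 0.05 in either direction, and so do 5 of the 10, a share near it. The 5 are Gzma and Gzmb, Ccl5 (log2 fold change 1.66, adjusted p = 0.0106), Itgae (0.84, adjusted p = 4.27e-04) and Cd4 (0.49, adjusted p = 0.0438). All 5 are higher at P24, and the share of all genes that are higher there is not given here.

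**Figure D2:**
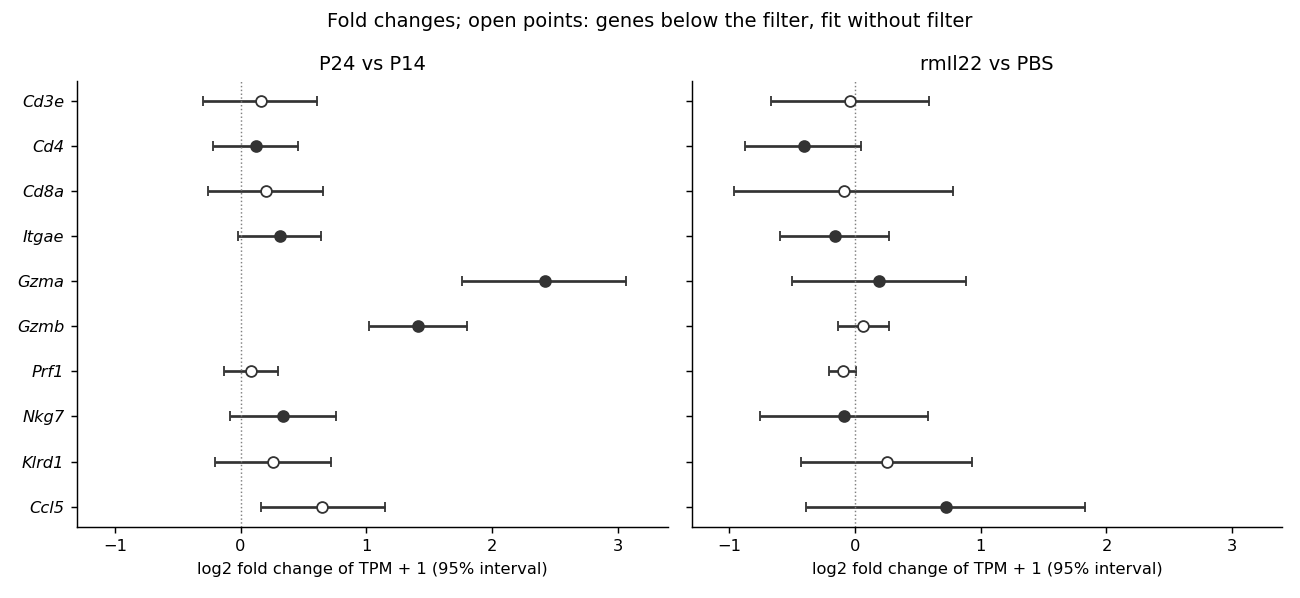
Log2 fold change of TPM + 1 with its 95% interval (horizontal axis) for each of the 10 genes in both comparisons; filled points are genes that passed the filter on low values and open points come from the fit without it. Gzma (2.42) and Gzmb (1.41) stand to the right of the other genes at P24 against P14, and all intervals of rmIl22 against PBS include 0.

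By mean TPM at P24, Gzma was first at 9.25 and did not overlap with the next gene, Cd4 at 2.27. Gzmb (2.2), Nkg7 (1.87), Itgae (1.79), Ccl5 (1.62), Klrd1 (1.05), Cd8a (0.684), Cd3e (0.544) and Prf1 (0.174) followed, each overlapping its neighbour in the order. At P14 the order was Cd4 (2), Nkg7 (1.26), Itgae (1.23), Gzma (0.763), Klrd1 (0.681), Ccl5 (0.619), Cd8a (0.444), Cd3e (0.356), Gzmb (0.176) and Prf1 (0.1), with all neighbours overlapping. Gzma thus had rank 4 at P14 and rank 1 at P24.

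Since the CD3 chains moved with the follicle-rich libraries, each gene was set against them within each library. Divided by the summed TPM of Cd3d, Cd3e and Cd3g, Gzma ranged from 0.122 to 0.406 at P14 and from 0.922 to 2.5 at P24. The same ratio for Gzmb ranged from 0.0199 to 0.0995 at P14 and from 0.225 to 0.576 at P24. These 2 were the only ones of 9 genes whose ratios did not overlap between the ages, and the count was also 2 with Cd3e alone as divisor. The share of all genes with such ratios was not worked out, so this count is a description only. The ratio of Cd8a was 0.0833 to 0.14 at P14 and 0.0511 to 0.163 at P24, a range that holds all its P14 values. Single libraries of the injected mice also reached high ratios, 0.836 for Gzma in PBS library 2 and 1.37 in rmIl22 library 2, where the CD3 chains were low.

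**Figure D3:**
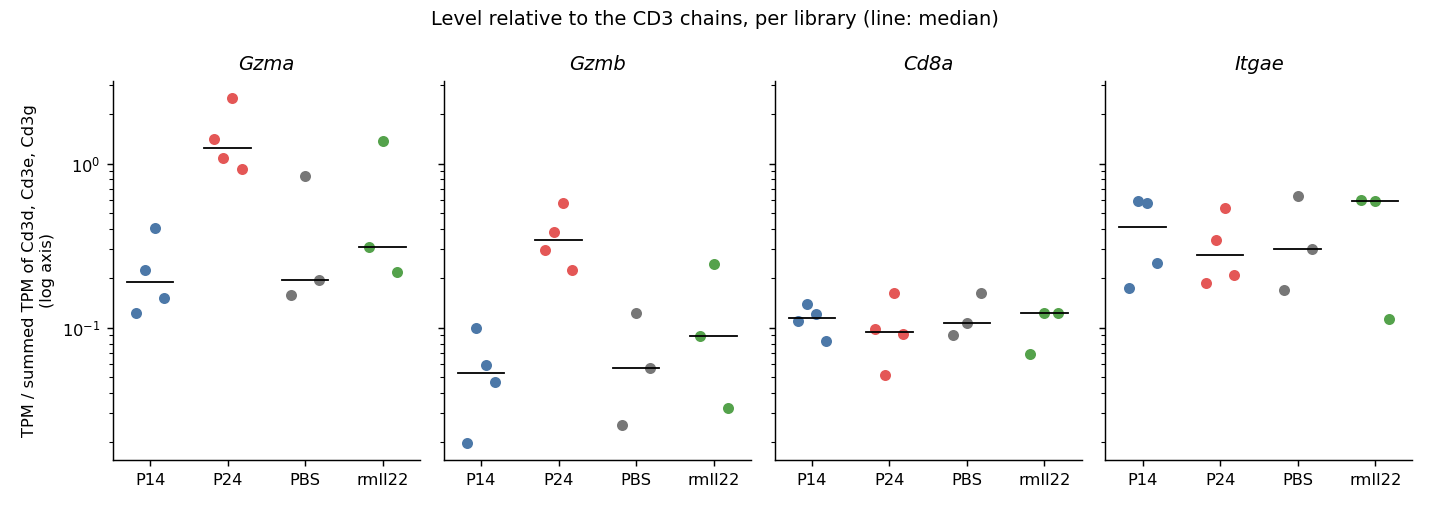
TPM of Gzma, Gzmb, Cd8a and Itgae divided by the summed TPM of Cd3d, Cd3e and Cd3g (vertical axis, log scale), 1 point per library and a line at the group median. The P24 points of Gzma (0.922 to 2.5) and Gzmb (0.225 to 0.576) lie above all P14 points, while those of Cd8a and Itgae overlap with them.

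The plot against B cell and follicle transcripts shows the same difference library by library. In the libraries with little follicle RNA, P24 libraries 2 and 6, Cd3e was 0.234 and 0.123 TPM, within or below the P14 range, while Gzma was 3.89 and 7.42 TPM. The part of follicle RNA in the higher granzyme values of P24 libraries 1 and 8 was not tested.

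**Figure D4:**
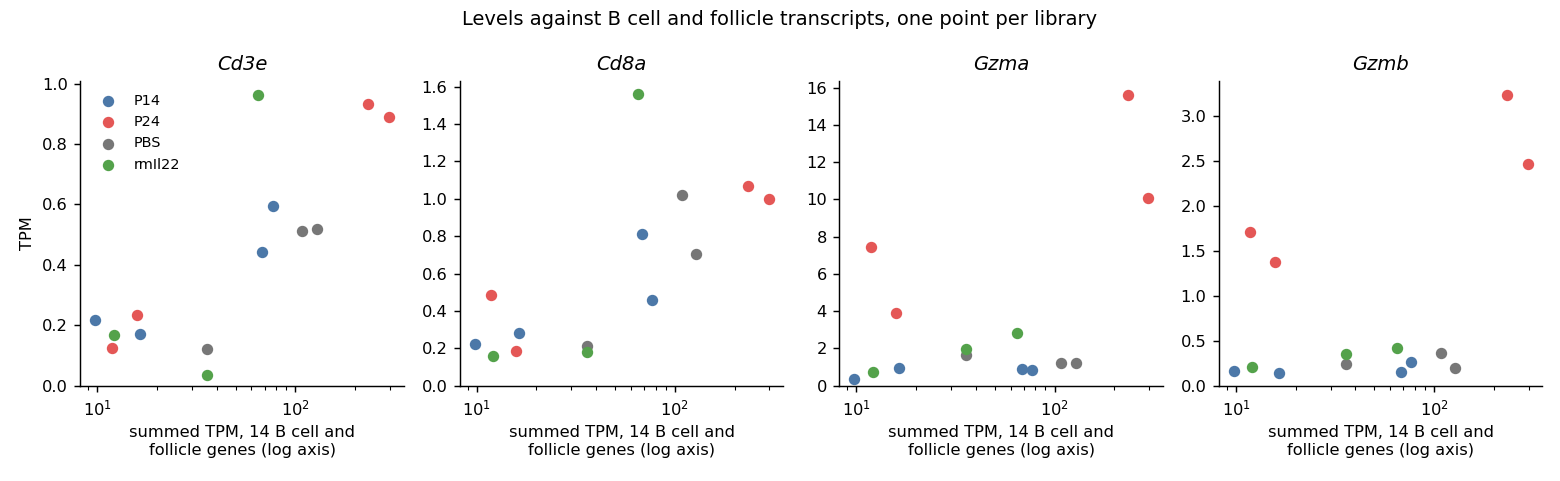
TPM of Cd3e, Cd8a, Gzma and Gzmb (vertical axis, linear) against the summed TPM of 14 B cell and follicle genes (horizontal axis, log scale) in the 14 libraries, coloured by group. Cd3e is at most 0.234 TPM in libraries with a follicle sum of up to 35.9 TPM, whereas the P24 points of Gzma and Gzmb lie above all other libraries on both sides of the plot.

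Other granzyme genes were at or near 0 or did not pass the test. Gzmb lies at one end of a cluster of granzyme and mast cell protease genes on chromosome 14. Of its neighbours, Gzmd, Gzme, Gzmf, Gzmg and Gzmn had no reads in any of the 14 libraries, which allows up to 3 reads in each. Several of these are near-identical copies, whose shared reads a counting step can drop, so their 0 is uncertain. Gzmc had 2 reads at P14 and 12 at P24 over 4 libraries each (limma without the filter, adjusted p = 0.193). The mast cell protease genes Mcpt1 and Mcpt2, more than 200 kb away, had means of 11.1 and 7.28 TPM at P14, and of 14.9 and 7.44 TPM at P24. Gzmk, the next granzyme to Gzma at 70.6 kb, was listed above 0 in 1 library. Gzmm had a mean of 0.913 ± 0.126 TPM in the P14 libraries and of 0.866 ± 0.122 TPM in the P24 libraries (SD, n = 4 each), with an adjusted p of 0.801 in limma without the filter.

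**Figure D5:**
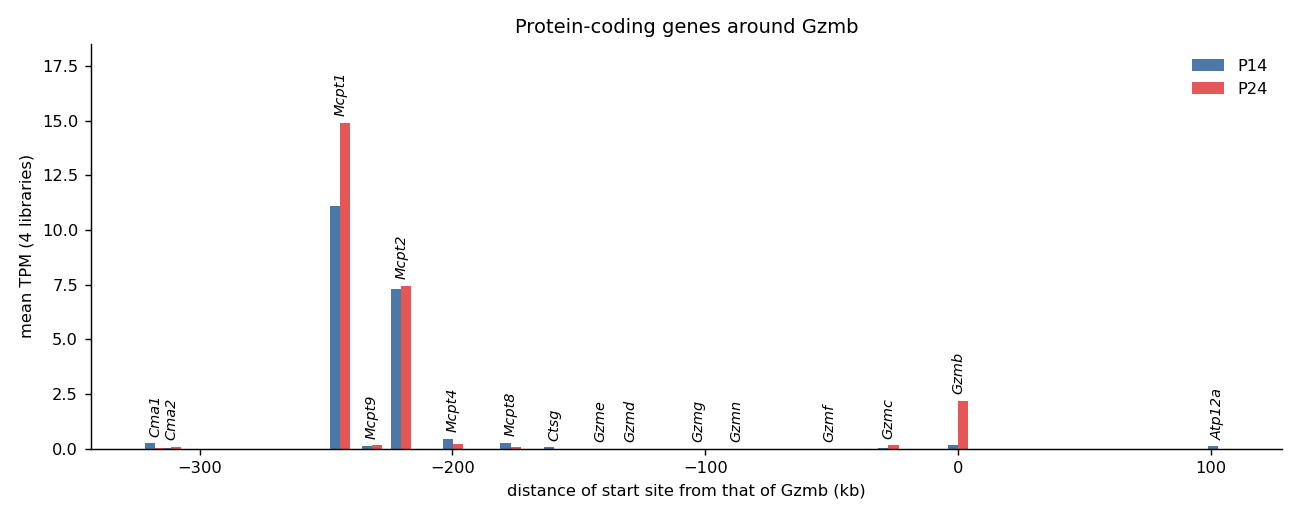
Mean TPM over 4 libraries at P14 and P24 (bars, from 0) of the protein-coding genes around Gzmb, placed by the distance of their start sites from that of Gzmb in kb. Gzmb is at 0.176 and 2.2 TPM, the nearest granzyme genes are at or near 0, and Mcpt1 and Mcpt2 are high at both ages.

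Lists of related genes, none of which holds any of the 10, were read from the same fits. Some list genes, among them Xcl1, Cd244, Tcrg-C2, Cxcl10 and Jchain, were below 1 TPM in every P14 library and reached the filter through P24 only. The filter therefore helps to set the list counts, as it does for the granzymes. Beside all list counts of the age comparison stand the shares over all genes. In the main test 14.6% rose and 43.7% fell, and without the filter 7.74% rose. Among 18 genes of intraepithelial T cells, 8 were tested, 4 rose and 1 fell with age, with a median log2 fold change of 0.32. Fitted without the filter, 4 of all 18 rose and 1 fell, with a median of 0.14. Xcl1, a chemokine of activated CD8+ and NK cells, rose by 1.27 (adjusted p = 5.30e-04), from 0.397 ± 0.267 to 2.43 ± 1.07 TPM. Cd7, a surface protein of T and NK cells, rose by 1.09 (adjusted p = 0.00634), from 1.21 ± 0.421 to 4 ± 2.36 TPM. Il2rb, a receptor chain shared by IL-2 and IL-15, rose by 0.56. Ahr, a ligand-sensing transcription factor that intraepithelial lymphocytes need and that other gut cells also express, fell by 0.61. Without P24 libraries 1 and 8 the count was 2 higher and 1 lower, and Xcl1 (0.96) and Cd7 (0.61) were still called.

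Among 22 genes of the T cell receptor complex and its signaling, 10 were tested and 2 rose. These were Trac, the constant region of the receptor alpha chain (log2 fold change 0.86, adjusted p = 0.0273), and Tcrg-C2, a constant region of the gamma chain (0.65, adjusted p = 0.00519). Neither was called without P24 libraries 1 and 8 (0.51 and 0.43), and the list's median turned from 0.56 to -0.18. In 2 of the 22 every P24 value lay above every P14 value, near the 7.97% of genes with any read. Among them was Tcrg-C2, at 0.324 to 0.692 TPM at P14 and at 1.01 to 2.01 TPM at P24. Fitted without the filter, 1 of all 22 rose, with a median of 0.22. Of the 9 tested genes of naive, helper and regulatory T cells, none rose by limma or by voom, and the list's median was 0.20, or -0.51 without P24 libraries 1 and 8.

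Among the other cytotoxic granule genes, 11 of 18 were tested, 3 rose and 5 fell. Unc13d, needed for granule release, rose by 1.14 and Ctsc, which activates granzymes by trimming their propeptide, rose by 1.03. Lamp1, a lysosomal membrane protein, fell by 1.64, from 1242 ± 147 to 397 ± 36.8 TPM, and Serpinb6b, a protease inhibitor, fell by 1.40. These 4 genes are active in many cell types. With median-scaled libraries the list counted 5 higher and 4 lower. Of 5 tested NK cell and NK receptor genes none rose and Il18r1, a receptor chain for IL-18, fell by 2.71. Without the filter 1 gene of the list rose, Klra7, a receptor of the Ly49 family, from 0.0428 ± 0.0419 to 0.396 ± 0.294 TPM, on 5 and 45 reads over the 4 libraries of each age (log2 fold change 0.40, adjusted p = 0.0405). All its P24 values lay above its P14 values, but Ly49 genes are near-identical copies of one another, so its count is uncertain. The NK cell receptor gene Ncr1 lay between 0.286 and 0.412 TPM in all P14 and P24 libraries.

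Of the 20 tested genes of the epithelial and myeloid partners of these lymphocytes, 10 rose and 2 fell. Among all genes tested, 14.6% rose and 43.7% fell (58.3% in either direction). The share called in either direction was thus about the same, but most calls of the list were higher and most calls over all genes were lower. In the list, without P24 libraries 1 and 8, 8 rose and 1 fell. Fitted without the filter, 9 of all 21 rose and 0 fell. Il18 rose by 1.83, Ccl25, which draws lymphocytes to the small intestine, by 1.49, Il15, a survival factor of intraepithelial lymphocytes, by 1.18 and Cxcl10 by 1.16. With median-scaled libraries 13 were higher and none lower, against 28.9% of all genes higher on that scale. In the lists for other cells, 0 of 10 tested B cell and follicle genes were called by limma, 0 had an unadjusted p under 0.05 and voom called 0 (median log2 fold change 0.88, and -0.84 without P24 libraries 1 and 8). Of 7 plasma cell genes 5 rose and 1 fell (without P24 libraries 1 and 8, 4 and 1 of 8 tested), with Igha rising by 3.46. Of 12 macrophage and dendritic cell genes none rose and 5 fell, near the share of all genes that fell (43.7%), with a list median of -0.16. Csf1r fell by 1.92. The other 7 were not called, among them Adgre1 (mean 9.7 TPM at P14 and 9.84 TPM at P24) and C1qa (66.8 and 69.6 TPM). None of 4 mast cell and granulocyte genes was called by limma or voom (1 had an unadjusted p under 0.05), 1 of 2 platelet genes fell, and 5 of 10 enterocyte genes rose and 1 fell. With median-scaled libraries, 1 NK receptor gene, 1 gene of the naive, helper and regulatory list, 3 macrophage and dendritic cell genes and 1 mast cell and granulocyte gene were called higher. The part of any of these cells in the granzyme values was not tested.

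In the injected mice, none of the 5 genes that reached the filter (Gzma, Cd4, Itgae, Nkg7 and Ccl5) was called by limma, and none had an unadjusted p under 0.05. Voom on the recovered reads called none of them either. Over all 14456 genes tested, 2.69% were called. Without the filter, none of the 10 was called either. In 1 of 10, Prf1, the groups did not overlap, against 14.9% of genes with any read. The authors' deposited table for this comparison holds 1102 genes with adjusted p of up to 0.00999, and none of the 10 is in it.

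Gzma was at 1.22, 1.67 and 1.22 TPM in PBS libraries 1, 2 and 3 and at 0.71, 1.99 and 2.81 TPM in the rmIl22 libraries. The rmIl22 libraries spanned the PBS values, with a log2 fold change of 0.19 (95% interval -0.50 to 0.88, adjusted p = 0.854). Gzmb was at 0.197, 0.244 and 0.358 TPM with PBS and at 0.203, 0.351 and 0.418 TPM with rmIl22, a log2 fold change of 0.06 without the filter (95% interval -0.14 to 0.27, adjusted p = 0.835). Gzmb thus stayed far below its P24 levels in all 6 libraries. Gzma was also below its P24 levels in all 6, but rmIl22 library 3 (2.81 TPM) came near the lowest P24 library (3.89 TPM).

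Ccl5 had the largest difference, at 0.729, 1.84 and 1.06 TPM with PBS and at 0.599, 4.15 and 4.47 TPM with rmIl22. The high values came from rmIl22 libraries 2 and 3, while library 1 was the lowest of all 6, and the difference of 0.72 on the log2 scale had an SE of 0.47 (adjusted p = 0.579). In the same libraries 2 and 3, the neutrophil gene S100a8 was at 400 and 53.3 TPM, against 0.276 in library 1 and 0.488 to 27.2 TPM with PBS. The summed level of its list of 15 mast cell and granulocyte genes was 20 to 91.1 TPM with PBS and 23.6 to 1036 TPM with rmIl22. Nearly all of the 1036 TPM, in rmIl22 library 2, was S100a8 and S100a9 (627 TPM). The sum therefore does not describe the mast cell genes of that list. Tpsab1 of the list was at 0 in 13 of the 14 libraries. The part of neutrophils in the Ccl5 values was not tested.

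Cd4 was at 2.74, 2.54 and 3.37 TPM with PBS and at 1.81, 1.37 and 2.71 TPM with rmIl22, a log2 fold change of -0.41 (95% interval -0.88 to 0.05, adjusted p = 0.396). Csf1r, the macrophage growth factor receptor, was the one gene of all lists that was called here, with a log2 fold change of -1.16 (adjusted p = 0.0151). Since macrophages can carry Cd4, its value is given beside Cd4. Of the 13 tested macrophage and dendritic cell genes, 12 were not called, with a list median of -0.23. Adgre1, Mrc1 and Sirpa of that list had a higher mean TPM with rmIl22 than with PBS. The 16 macrophage and dendritic cell genes summed to 301 to 372 TPM with PBS and to 246 to 311 TPM with rmIl22, none of them at 0 in any library. Much of that difference in sums was Csf1r itself (mean 76.6 TPM with PBS and 33.7 TPM with rmIl22). The part of macrophages in the Cd4 values was not tested. Prf1 was at 0.227, 0.189 and 0.192 TPM with PBS and at 0.117, 0.0728 and 0.168 TPM with rmIl22, on 3 to 10 reads per library, and its log2 fold change was -0.10 (adjusted p = 0.503).

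In the other 5 genes the values differed more between libraries of 1 group than between the groups. The rmIl22 library 3 was the highest of its group for all 10 genes, and its follicle sum (64.8 TPM) was also the highest of its group. Cd3e was at 0.52, 0.12 and 0.511 TPM with PBS and at 0.167, 0.0347 and 0.962 TPM with rmIl22. Cd8a was at 0.706, 0.214 and 1.02 TPM with PBS and at 0.158, 0.178 and 1.56 TPM with rmIl22. In both genes PBS library 2 was low, as were rmIl22 libraries 1 and 2. Itgae ran from 1.27 to 1.9 TPM with PBS and from 0.859 to 1.45 TPM with rmIl22, Nkg7 from 1.23 to 1.63 and from 0.709 to 2.48 TPM, and Klrd1 from 0.573 to 0.802 and from 0.389 to 2 TPM, all overlapping.

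Whether the age effect and the rmIl22 effect differed was tested in 1 contrast over all 14 libraries, in which no control library is shared. The difference was called for Gzma (2.23 on the log2 scale, SE 0.48, adjusted p = 0.00523) and for Gzmb (1.35, SE 0.25, adjusted p = 0.00227), both larger for age. These were 2 of the 8 genes that reached the filter, Gzmb through its P24 libraries only, and 6.51% of 15702 genes had a difference in that direction. With median-scaled libraries 4 were called. The share of all genes on that scale is not given here, so this count is a description only. For Ccl5 the difference was -0.06 (95% interval -1.17 to 1.04, adjusted p = 0.942), and it was not called for Cd4, Cd8a, Itgae, Nkg7 or Klrd1. Mice of the 2 comparisons also differed in age and in handling, which cannot be told apart here.

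Genes with the most similar pattern were looked up over the 14 libraries by Pearson r of log2(TPM + 1), among 15302 genes, and the shared split of libraries by follicle RNA enters all these values. For Cd3e they were Cd3g (0.94), Iglv3 (0.93) and Lat (0.93), and for Cd8a Trbc2 (0.95), Ccr7 (0.93) and Trbc1 (0.93). Cd3g, Lat, Trbc1 and Trbc2 belong to the T cell receptor and its signaling, Ccr7 guides naive lymphocytes, and Iglv3 is an immunoglobulin segment. For Gzma and Gzmb, beside each other (0.97), they were Gm13203 (0.95 and 0.96), then Tnfaip8l2 for Gzma (0.94) and B430010I23Rik for Gzmb (0.96). Their mean levels at P14 and P24 were 0.192 and 2.32 TPM for Gm13203, 5.09 and 33.9 TPM for Tnfaip8l2, and 0.0974 and 1.96 TPM for B430010I23Rik.

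For Itgae the nearest were Irf4 (0.91), Gimap1 (0.89) and Cilp (0.89), and for Prf1 H2-DMa (0.91), Gimap4 (0.88) and Clu (0.88). For Cd4 they were Csrnp1 (0.88), Cd226 (0.86) and Laptm5 (0.85), and for Klrd1 Arhgap15 (0.87), Lat (0.85) and Gm2531 (0.85). Nkg7 had the weakest neighbours, Gm15265 (0.86), Cd3g (0.83) and Clec7a (0.80). For Ccl5 they were Cfp (0.90), AF251705 (0.88) and Lilrb4a (0.85), genes known mostly from myeloid cells. Among the 10 themselves, Cd3e had an r of 0.89 with Cd8a and 0.82 with Klrd1, against 0.43 with Gzma and 0.41 with Gzmb.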

How the data were processed

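Stranded libraries were made from total RNA of whole ileum after removal of ribosomal RNA (per the labels' protocols). Levels were deposited by the authors as TPM per gene symbol. The submitters' processing notes name FastQC 0.11.2, STAR 2.4.0f, DESeq2 1.14, HTSeq 0.6.1p1 and the build mm10. The step each tool served is not given in the sources used here. The authors' deposited comparison tables hold log2 fold changes with adjusted p-values, whose decimal commas were read as points.

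Of 46882 entries, 27 with date numbers for symbols were left out. Columns of P14 and P24 carry numbers that are not the labels' replicate numbers, and were assigned to their group only. Whole reads (within 0.01) were recovered from the TPM for 100% of 31189 genes with any value, and a gene read in 1 library only can be undercounted. Library totals were 35.6 to 46.5 M reads, with a median of 42.7 M, and intervals cover counting error and library spread as fitted, not other causes.

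Tests used limma 3.58.1 (intensity trend) in R 4.3.3 on log2(TPM + 1), two-sided, on the libraries of each comparison. A gene was tested if 4 or more libraries (age comparison) or 3 or more (injected mice) had 1 TPM or more. The Benjamini-Hochberg adjustment ran over every gene tested, at a threshold of 0.05. The fits were tested on simulated data. Alternatives were a pseudocount of 0.1, no filter, median scaling, quantile normalisation, limma voom on recovered reads, a fit on all 14 libraries, a replicate block and each library left out; leaving out P24 libraries 1 and 8, or 2 and 6, joining no filter to other settings and the sum of 3 CD3 chains as divisor were added after seeing the data. The 10 genes and the 12 lists were chosen with earlier results of these data known. Genes named from the lists were up to 4 called per list and comparison with the largest change, or those a result turns on. Gzmc, Gzmm, Gzmk and the neighbours of Gzmb, Ncr1, Klra7, S100a8 and S100a9 were named after their values were seen. So were Cd244, Jchain, Adgre1, C1qa, Mrc1 and Sirpa. In the lists, 3 symbols were matched through an older symbol. The result of 1 list gene is not reported here.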

Additional observations from a re-analysis of the deposited data

Results flagged for a closer look

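Of 20 gene and group pairs with 4 libraries, 2 held a library far from the other 3 of its group, and chance alone marks about 1 pair in 20. Itgae was lowest in P14 library 2, at 0.937 TPM, beside 1.31 to 1.36 TPM in the other P14 libraries. The same library was the lowest of its group for 7 of the 10 genes. Gzmb was highest in P14 library 5, at 0.259 TPM on 9 reads, beside 0.137 to 0.158 TPM on 4 or 5 reads in the others.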

How the results depend on the processing

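Gzma and Gzmb were called higher at P24 in all 16 alternatives each, with log2 fold changes of 2.14 to 2.73 and 1.26 to 1.54 as each library was left out. With age, 2 of the 10 genes were called in the main test, 5 with quantile normalisation, 4 without P24 libraries 2 and 6, and 2 to 4 as each library was left out (4 without P24 library 2). For the difference of effects, 4 were called with median scaling and 4 with quantile normalisation, given without the share of all genes and as a description only. Without P24 libraries 1 and 8, and with P14 libraries 1 and 5 kept, the uncalled log2 fold changes turned to -0.19 (Cd3e), -0.11 (Cd8a), -0.07 (Cd4), -0.08 (Prf1) and -0.04 (Klrd1). Without P24 libraries 2 and 6, 71 list genes were called against 47.

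With rmIl22, none of the 10 was called in any alternative. Uncalled values crossed 0 as each library was left out: -0.32 to 0.14 for Cd3e, -0.46 to 0.11 for Cd8a, -0.06 to 0.51 for Gzma, -0.41 to 0.10 for Nkg7 and -0.05 to 0.51 for Klrd1. Of all genes, 389 were called, 98 with no filter, 1058 in a fit on all 14 libraries, and 4 (without PBS library 3) to 1324 (without rmIl22 library 2) as each library was left out; every one of these 6 moved the count by over 1.5 times. Of the list genes 1 was called, 2 by voom, 5 in the fit on all libraries and 0 to 20 as each was left out. The cause was not tested.

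PBS and rmIl22 share replicate numbers, but same-numbered libraries deviated together in 1 of 3 pairs only (correlations -0.07, 0.33 and -0.05), and 2 of 6 libraries correlated best with their own number. With a replicate block, 280 genes and none of the 10 were called. Genes below the filter have values without the filter only, so the other pseudocount, scalings and the fit on all libraries were not run for them. Counts of 1 to 32 reads limit Cd3e and Prf1 most.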
